A study of Mus musculus with 18 samples.

Results

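The 9 genes described here encode transcription factors of the basal layer of the mouse mammary gland: Trp63, Snai2, Tbx2, Zeb1, Zeb2, Twist2, Mkl1, Srf and Myocd. They were chosen by gene symbol, and each symbol stood in 1 row of a deposited table of 46257 gene IDs. All 9 were among the 22315 genes tested, those that reached 10 in 2 or more libraries; Twist2 did so in 4 basal libraries and 1 luminal library.

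RNA was sequenced from sorted cells of 9 groups with 2 libraries each, 18 libraries in all. The groups were basal (BC), ER+ luminal and ER- luminal (LC) cells, each at puberty, in the adult and in pregnancy. Every group carried the genotype ERrtTA/TetOCre/rosaYFP, so the reporter and Cre alleles were shared by all of them. The sources used here give no ages, no sorting gates and no word on doxycycline. Basal samples are labelled basal cells in the adult but "BC luminal cells" at puberty and in pregnancy; their titles put all of them in the basal group. Nothing in the labels says that the 2 libraries of a group came from separate animals, so the p-values speak only of the spread among these libraries, and that spread may be technical.

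Basal cells form the outer, contractile layer of the mammary duct and squeeze milk out when oxytocin acts on them. They are epithelial cells that also express a smooth muscle program. p63, the product of Trp63, sustains the basal state of many layered epithelia. Serum response factor (Srf) binds a DNA motif called the CArG box in contractile genes and relies on the cofactors Mkl1 and Myocd. Snai2, Zeb1 and Zeb2 are zinc finger proteins, and Twist2 is a basic helix-loop-helix protein; these factors are best known for repressing junction genes during epithelial to mesenchymal transition, the Snai and Zeb proteins through E-box motifs.

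Values are scaled read counts that sum to nearly the same total in each library. The steps between low values gave estimated depths of 2425236 to 11406551 reads per library, lowest in the 4 adult luminal libraries, where the smallest value above 0 was 7 to 9. Basal markers followed the labels: 11 of them, including the keratin genes Krt5 and Krt14 and the smooth muscle actin gene Acta2, summed to 154061 to 308691 in basal libraries, 5060 to 33404 in ER+ and 10339 to 38837 in ER- luminal libraries. Luminal markers summed to 21991 to 82861 in basal libraries, against 113951 to 204454 in ER+ and 93939 to 161860 in ER- luminal libraries. The library labelled pregnancy ER+ luminal 2 stood apart from its label: its 10 ER+ luminal markers summed to 34634, against 86823 to 229261 in the other 5 ER+ and 7154 to 47869 in the 6 ER- luminal libraries, and its 9 ER- luminal markers summed to 130491, against 10607 to 53170 in the other ER+ and 56637 to 248881 in the ER- luminal libraries. Transcripts of other cells were also present. Endothelial markers, 11 genes, summed to 5983 to 17428 in basal, 1091 to 14092 in ER+ and 694 to 12539 in ER- luminal libraries. Within puberty, both luminal libraries numbered 1 had endothelial sums of 14092 (ER+) and 12539 (ER-), against 1790 (ER+) and 2355 (ER-) in those numbered 2. Their basal marker sums were also higher, 15253 (ER+) and 26072 (ER-), against 5060 (ER+) and 17979 (ER-). Fibroblast markers went the other way, at 18422 (ER+) and 14970 (ER-) against 61818 (ER+) and 68008 (ER-). Fewer cells of a type and less RNA per cell cannot be told apart in such bulk libraries.

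Basal cells had more mRNA of all 9 factors than luminal cells over the 3 stages. The largest differences were those of Trp63 and Snai2, which were 36.2-fold and 32.9-fold higher, and the smallest were those of Srf and Mkl1, at 1.54-fold and 1.79-fold. All 9 were called higher, where called means a Benjamini-Hochberg adjusted p under 0.05 in a limma fit of log2(value + 1) over all genes tested. In the same comparison 42.5% of all genes were called in either direction and 20.9% were called higher in basal cells. The median log2 fold change was 1.79 over the 9 genes and -0.03 over all genes. Scaling moved the split over all genes, from 4669 higher and 4804 lower to 4162 and 6486 under quantile normalization, while all 9 stayed called higher.

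At single stages fewer of the 9 passed, always in the direction of basal cells. At puberty 5 were called higher, with 21.4% of all genes called and 11.3% called higher. In the adult 8 were called higher, with 30.9% of all genes called and 18.6% called higher. In pregnancy 7 were called higher, with 19.7% of all genes called and 8.64% called higher. Both basal libraries lay above all 4 luminal libraries of the same stage for 9 genes at puberty, 8 in the adult and 7 in pregnancy. The share of all genes that do so was not computed, so these counts describe order only. At puberty they include Zeb1, Twist2, Srf and Myocd, which were not called.

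**Figure D1:**
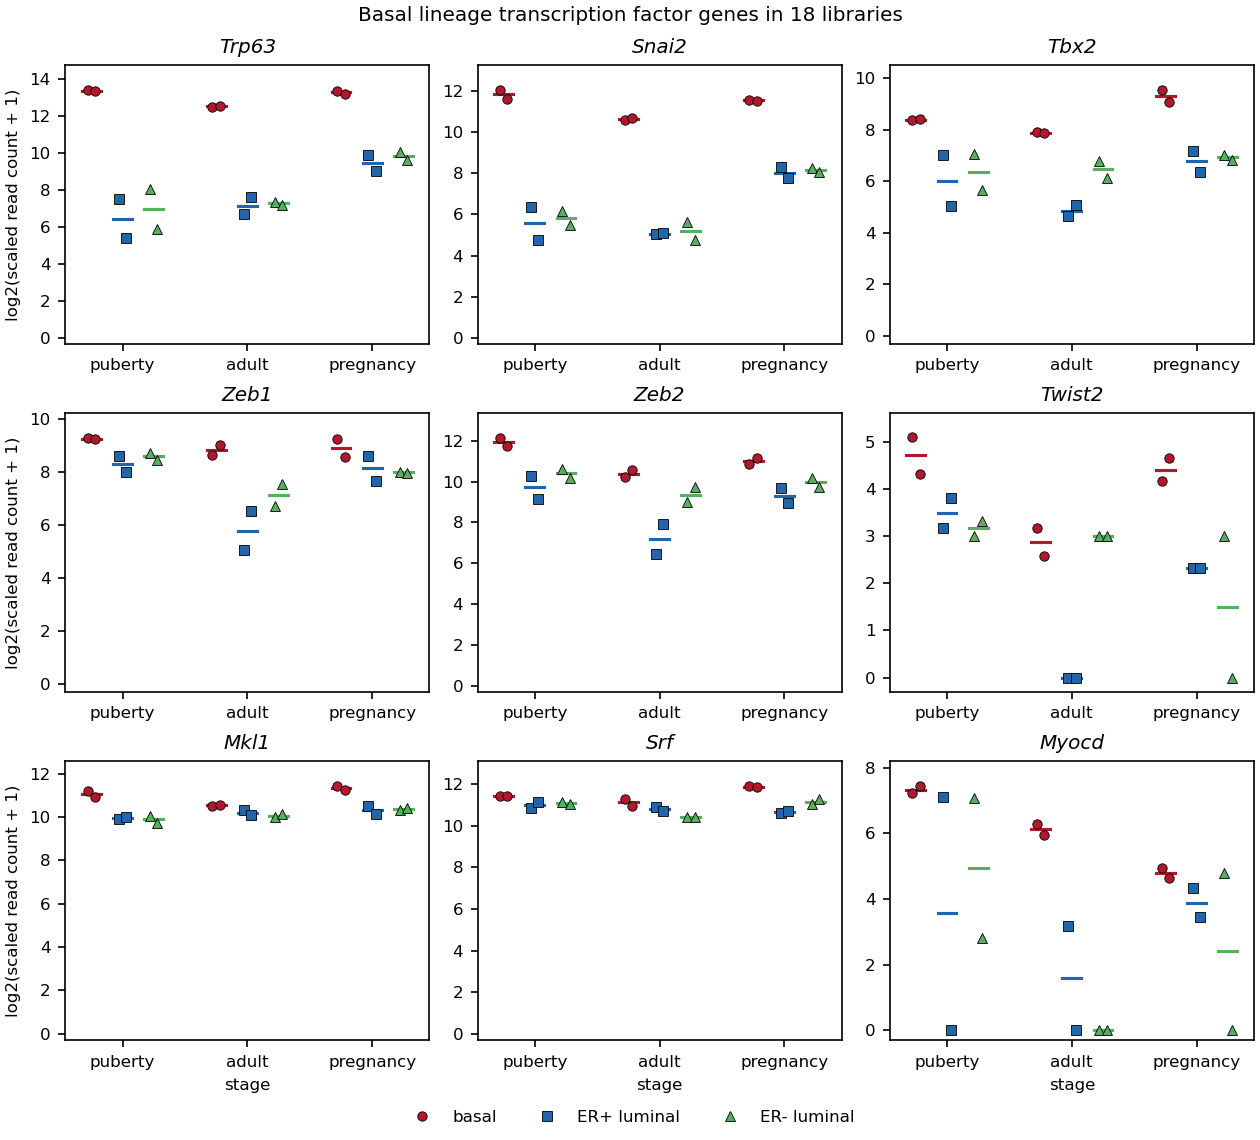
Scaled read counts of the 9 factor genes on a log2(value + 1) axis by stage; each point is 1 library, each bar the mean of the 2 libraries of a group, with basal, ER+ luminal and ER- luminal cells from left to right. Trp63 and Snai2 stand far above luminal cells at every stage, whereas Srf and Mkl1 differ by less than 1.2 log2 units at each stage.

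Per kilobase of annotated exon, with all transcripts of a gene merged, Snai2, Trp63 and Srf had the highest levels of the 9 in basal cells. They stood in that order at puberty, with 1850 ± 382, 1244 ± 38.5 and 959 ± 20.8 scaled reads per kb (SD, n = 2). In adult basal cells Snai2 had 789 ± 36.0, Srf 783 ± 138 and Trp63 694 ± 27.5 per kb, and Srf did not differ from the other pair beyond its spread. In pregnancy Snai2 had 1499 ± 55.3, Srf 1311 ± 21.5 and Trp63 1165 ± 103 per kb. Mkl1 came next at every stage, with 246 to 428 per kb, followed by Zeb2 and Tbx2, of which Tbx2 was the higher in pregnancy. Myocd and Twist2 had the lowest levels, between 2.05 and 25.1 per kb, and Zeb1 stood above them at 44.6 to 59.7 per kb. In luminal cells the order was another one: Srf led each of the 6 luminal groups with 480 to 796 per kb and Mkl1 was next with 158 to 217, while Trp63 had 13.1 to 110 and Snai2 16.1 to 143.

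Trp63 (chromosome 16, 25683763 to 25892102, plus strand, GRCm38) encodes p63, a relative of p53. Its values were 10664 and 10207 in puberty basal libraries, against 178 and 42 in ER+ and 261 and 58 in ER- luminal libraries. In the adult it had 5660 and 5986 in basal libraries, against 101 and 198 in ER+ and 164 and 145 in ER- luminal libraries. Pregnancy basal libraries had 10387 and 9166, against 955 and 520 in ER+ and 1050 and 789 in ER- luminal libraries. The lowest basal library was more than 5 times above the highest luminal one, and the 4 pregnancy luminal libraries were above all other luminal libraries. The log2 fold change of basal over luminal cells was 6.64 ± 0.62 (SE) at puberty, 5.29 ± 0.62 in the adult and 3.61 ± 0.62 in pregnancy, and each was called.

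Snai2 (chromosome 16, 14705852 to 14709385, plus strand) encodes Slug, a repressor of the Snail family that is known from basal and stem-like mammary cells. It had 4285 and 3192 in puberty basal libraries, against 82 and 26 in ER+ and 72 and 44 in ER- luminal libraries. In the adult the values were 1543 and 1646 in basal, 32 and 33 in ER+ luminal and 48 and 26 in ER- luminal libraries. In pregnancy they were 3109 and 2951 in basal, 315 and 220 in ER+ luminal and 307 and 271 in ER- luminal libraries. As with Trp63, basal and luminal libraries did not overlap and pregnancy luminal libraries were the highest luminal ones. The log2 fold change of basal over luminal cells was 6.15 ± 0.37 at puberty, 5.51 ± 0.37 in the adult and 3.45 ± 0.37 in pregnancy.

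The basal to luminal difference of Snai2 was itself smaller in pregnancy. In the test of that difference, pregnancy against adult gave -2.06 ± 0.53 on the log2 scale (limma adjusted p = 0.0303) and pregnancy against puberty -2.70 ± 0.53 (limma adjusted p = 0.0277). For pregnancy against adult 6.18% of all genes were called and 4.67% were called downward; for pregnancy against puberty 0.744% were called and 0.488% downward. Both tests use the same pregnancy libraries. With all 18 libraries Snai2 was the 1 gene of the 9 called in either test. The 11 basal markers moved the same way: their medians were -2.16 for pregnancy against adult and -3.31 for pregnancy against puberty, against -0.27 and -0.14 over all genes, and 2 of 11 were called downward in each test. Trp63 had differences of -1.69 ± 0.88 and -3.04 ± 0.88, with limma adjusted p of 0.301 and 0.202. Without both puberty luminal libraries numbered 1, a setting chosen after seeing the data, the second was -4.09. The first uses no puberty library and stayed at -1.69, so that setting changes only the spread it is tested against. In both tests the side of the threshold on which Trp63 fell depended on that pair of libraries. These calls therefore do not set Snai2 apart from Trp63. The Snai2 calls were lost in both tests without either pregnancy basal or either pregnancy ER- luminal library. The first was also lost without either adult basal library, adult ER- luminal library 2 or pregnancy ER+ luminal library 1, and the second without puberty basal library 1 or puberty ER- luminal library 2, with adjusted p of at most 0.122 and 0.203. 

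**Figure D2:**
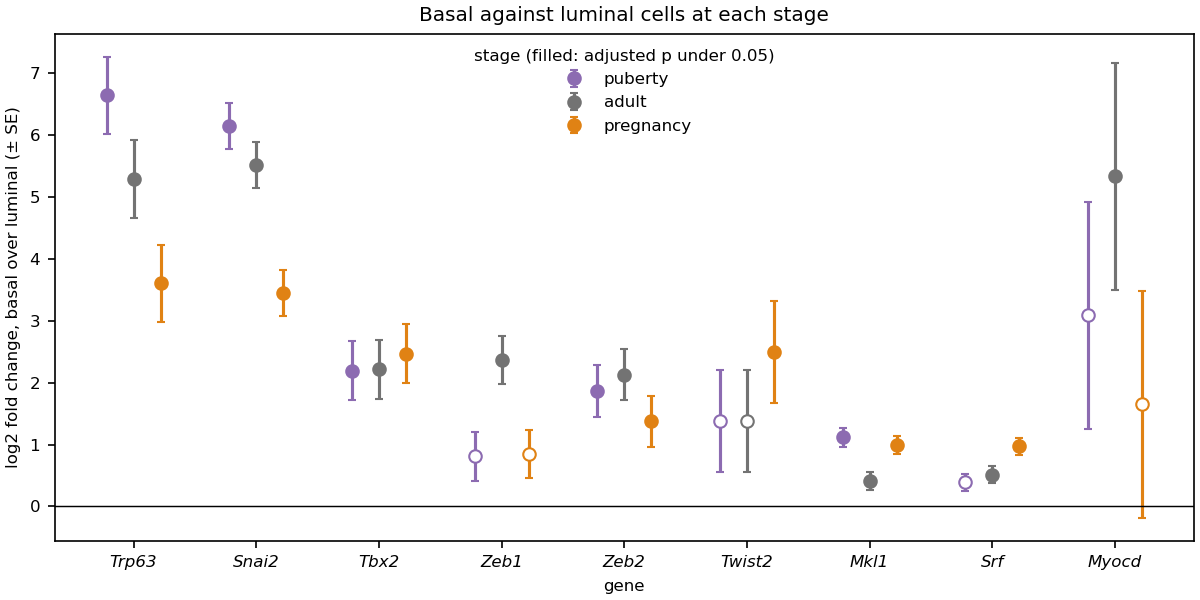
Log2 fold change of basal over luminal cells for each gene at each stage (points; bars ± SE from the fit), filled where the adjusted p was under 0.05. Trp63 and Snai2 have their smallest difference in pregnancy, Zeb1 has its largest in the adult, and the errors of Myocd are the widest.

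Luminal cells of pregnancy had more Trp63 and Snai2 mRNA than luminal cells of the other stages. Against adult luminal cells the log2 fold change was 2.43 ± 0.51 for Trp63 (adjusted p = 0.00519) and 2.99 ± 0.30 for Snai2 (adjusted p = 7.54e-06). Against puberty luminal cells it was 2.94 ± 0.51 (adjusted p = 0.00194) and 2.41 ± 0.30 (adjusted p = 5.02e-05). Basal markers moved in the same libraries. Of the 11 basal markers, 8 were called higher in pregnancy than in adult luminal cells and 8 were called higher and 1 lower than in puberty luminal cells.

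Set against the basal mean of the same stage, luminal Trp63 stood at 1.05% (ER+) and 1.53% (ER-) at puberty, 2.57% (ER+) and 2.65% (ER-) in the adult and 7.54% (ER+) and 9.41% (ER-) in pregnancy. Snai2 stood at 1.44% (ER+) and 1.55% (ER-) at puberty, 2.04% (ER+) and 2.32% (ER-) in the adult and 8.83% (ER+) and 9.54% (ER-) in pregnancy. Krt5, a keratin of basal cells, had 0.811% (ER+) and 1.22% (ER-) at puberty, 1.49% (ER+) and 2.41% (ER-) in the adult and 7.07% (ER+) and 10.5% (ER-) in pregnancy. Between these 3 genes the share differed by at most 2 percentage points in any luminal group, while from puberty to pregnancy it grew for each of them. Over all 11 basal markers the median share was 1.25% (ER+) and 2.67% (ER-) at puberty, 2.01% (ER+) and 2.41% (ER-) in the adult and 11% (ER+) and 14.3% (ER-) in pregnancy. The markers themselves spread widely, from 0.763% to 67.4% in ER+ and 1.01% to 70.6% in ER- cells at puberty and from 7.07% to 164% in ER+ and 9.81% to 190% in ER- cells in pregnancy. Itgb4, an integrin of the basement membrane contact, was the highest in pregnancy and in the adult, with more mRNA in luminal than in basal cells. No defining basal marker was at 0 in any luminal library. The part of basal transcripts in the luminal libraries in the Trp63 and Snai2 values was not tested.

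**Figure D3:**
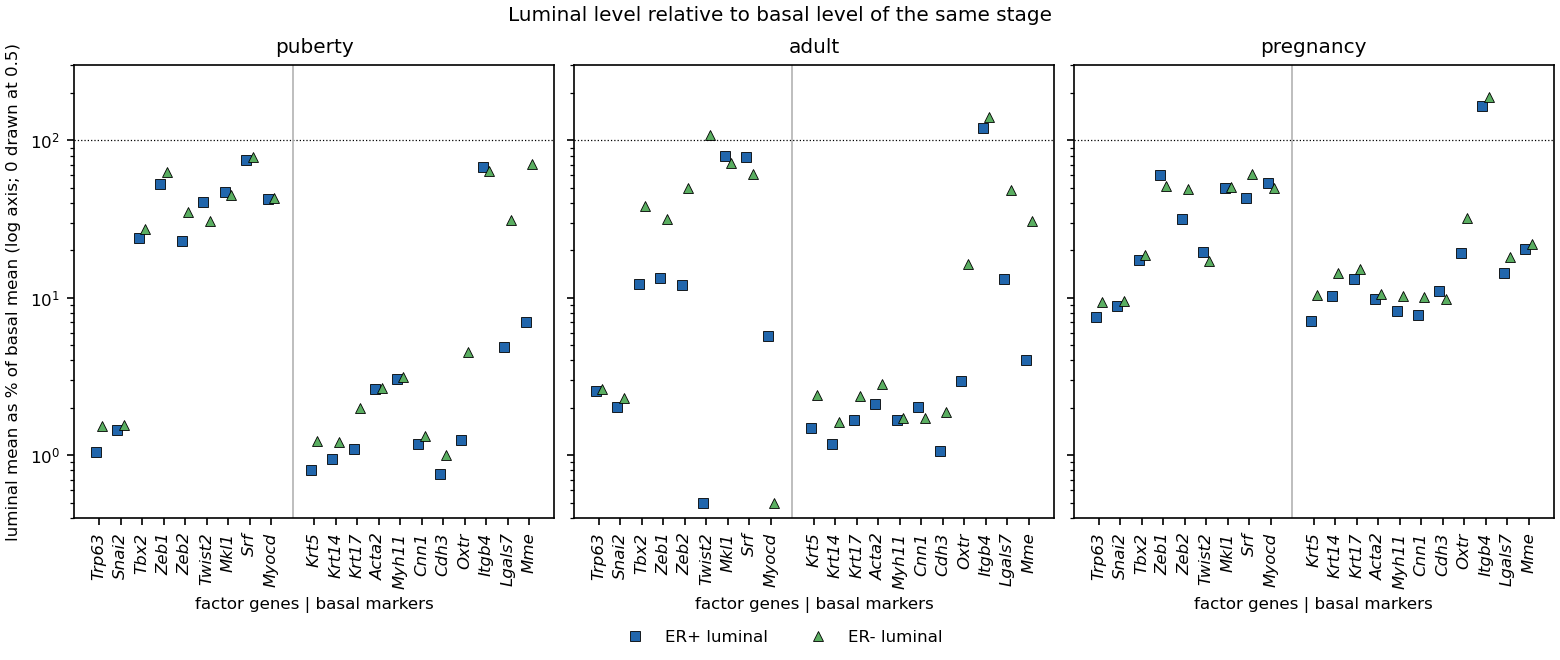
Mean luminal level as a percent of the mean basal level of the same stage, on a log axis, for the 9 factor genes (left of the line) and the 11 basal markers (right of it); squares are ER+ and triangles ER- luminal cells, and values of 0 are drawn at 0.5. Trp63 and Snai2 lie between 1.05% and 9.54%, near Krt5 and the lower of the basal markers, while Itgb4 lies at 63.4% to 190% and Oxtr, Lgals7 and Mme also lie higher in most groups.

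Tbx2 (chromosome 11, 85832551 to 85841948, plus strand) encodes a T-box repressor. It had 331 and 339 in puberty basal libraries, against 128 and 32 in ER+ and 132 and 50 in ER- luminal libraries. In the adult it had 239 and 230 in basal, 24 and 33 in ER+ luminal and 110 and 69 in ER- luminal libraries. In pregnancy it had 745 and 544 in basal, 144 and 81 in ER+ luminal and 128 and 113 in ER- luminal libraries. Every basal library was above every luminal library, and pregnancy basal libraries were the highest. The log2 fold change of basal over luminal cells was 2.29 ± 0.28 over the 3 stages (adjusted p = 7.97e-06) and ranged from 2.20 to 2.47 at single stages. Luminal Tbx2 was higher in pregnancy than in the adult by 1.18 ± 0.39 (adjusted p = 0.0343), a call lost under quantile normalization and without any 1 of 6 of the 8 luminal libraries compared, all but pregnancy ER+ library 2 and adult ER- library 1 (adjusted p of at most 0.121).

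Zeb2 (chromosome 2, 44983632 to 45117395, minus strand) encodes a zinc finger homeodomain repressor that is also active outside epithelia. Puberty libraries had 4481 and 3408 in basal, 1247 and 575 in ER+ luminal and 1593 and 1160 in ER- luminal cells. Adult libraries had 1191 and 1524 in basal, 86 and 240 in ER+ luminal and 505 and 846 in ER- luminal cells. Pregnancy libraries had 1851 and 2279 in basal, 811 and 488 in ER+ luminal and 1158 and 857 in ER- luminal cells. Within each stage basal libraries were above luminal ones without overlap, and ER+ luminal libraries of the adult were the lowest of all 18. Basal over luminal cells gave 1.86 ± 0.42 at puberty, 2.13 ± 0.42 in the adult and 1.37 ± 0.42 in pregnancy on the log2 scale. The puberty call did not hold without puberty basal library 1. The pregnancy call had a limma adjusted p of 0.037. It did not hold without either pregnancy basal library, pregnancy ER+ library 2 or pregnancy ER- library 2. It was also lost when every gene above 0 in any library was tested.

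Zeb2 was the 1 factor of the 9 called between the luminal populations. Tbx2 was also lower in ER+ cells, at -0.70 ± 0.32 on the log2 scale, but was not called (limma adjusted p = 0.13). ER+ luminal cells had less Zeb2 than ER- luminal cells, by a log2 fold change of -1.17 ± 0.28 (adjusted p = 0.00822). Over all genes 25.5% were called between these populations and 15.2% were called lower in ER+ cells. The 2 populations did not overlap in the adult and in pregnancy, and overlapped at puberty. Without the library labelled pregnancy ER+ luminal 2 the value was -1.05 (adjusted p = 0.0255), and without the 6 adult libraries it was -0.67 (adjusted p = 0.129). Immune markers moved with it: 7 of 15 were called lower in ER+ than in ER- luminal cells, and none higher. Their sum ran from 1044 to 3600 in ER+ and from 1795 to 9080 in ER- luminal libraries, and Ptprc, which marks white blood cells, was above 0 in all 18 libraries. The part of immune transcripts in the Zeb2 difference was not tested.

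Zeb1 (on chromosome 18, plus strand) is the close relative of Zeb2. It had 623 and 602 in puberty basal libraries, against 393 and 254 in ER+ and 423 and 353 in ER- luminal libraries. Adult libraries had 400 and 516 in basal, 32 and 91 in ER+ luminal and 103 and 188 in ER- luminal cells. Pregnancy libraries had 606 and 378 in basal, 393 and 201 in ER+ luminal and 256 and 248 in ER- luminal cells. The values of pregnancy basal and luminal libraries overlapped, and adult luminal libraries were the lowest. Basal over luminal cells gave 2.37 ± 0.39 in the adult, which was called, and 0.81 ± 0.39 at puberty and 0.84 ± 0.39 in pregnancy (adjusted p = 0.166 and 0.147).

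Averaged over ER+ and ER- cells, both Zeb genes were low in adult luminal cells relative to the stages on either side. Mean Zeb2 in basal cells was also lowest in the adult, at 1357.5 against 3944.5 at puberty and 2065 in pregnancy. Set against those basal means, ER- luminal Zeb2 stood at 34.9% at puberty, 49.8% in the adult and 48.8% in pregnancy. ER+ luminal Zeb2 stood at 23.1%, 12% and 31.5% in the same order. Adult against puberty luminal cells gave -2.0 ± 0.32 for Zeb1 (adjusted p = 0.000726) and -1.80 ± 0.34 for Zeb2 (adjusted p = 0.00476). Pregnancy against adult luminal cells gave 1.60 ± 0.32 for Zeb1 (adjusted p = 0.00182) and 1.36 ± 0.34 for Zeb2 (adjusted p = 0.0107). Without both puberty luminal libraries numbered 1 the adult to puberty values were -1.77 and -1.41. The puberty luminal libraries kept there were those with the higher fibroblast sums. Stromal and vascular markers moved in the same direction. Against puberty luminal cells, adult luminal cells had 6 of 11 endothelial, 4 of 6 pericyte, 2 of 10 fibroblast and 7 of 8 adipocyte markers called lower and none of these higher. In pregnancy, 10 of 11 endothelial, 5 of 6 pericyte and 4 of 10 fibroblast markers were called higher than in adult luminal cells. Endothelial sums were 694 to 1362 in the 4 adult luminal libraries, where Cdh5 and Pecam1 were at 63 or more, and 6205 to 10373 in the 4 pregnancy ones. What these transcripts contribute to the Zeb1 and Zeb2 values was not tested, and the low depth of the adult luminal libraries and their stage cannot be told apart.

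Over the 9 genes, 3 were called lower in adult than in puberty luminal cells, Srf being the third at -0.43 ± 0.11 (adjusted p = 0.0196); 12% of all genes were called and 8.26% were called lower. For pregnancy against adult luminal cells 5 were called higher, namely Trp63, Snai2, Tbx2, Zeb1 and Zeb2, with 29% of all genes called and 19.7% called higher. For pregnancy against puberty luminal cells 3 were called higher, Trp63, Snai2 and Mkl1, with 25% of all genes called and 15.1% called higher. Mkl1 moved by 0.41 ± 0.12 in that comparison (adjusted p = 0.022). That call was lost under both other scalings and without puberty ER+ library 1, puberty ER- library 2, pregnancy ER+ library 1 or pregnancy ER- library 2 (adjusted p of at most 0.116). The Srf call was lost without puberty ER+ library 2, puberty ER- library 1, adult ER+ library 2 or adult ER- library 1 (adjusted p of at most 0.0804), and without both puberty luminal libraries numbered 1 (adjusted p = 0.0549). The median over the 9 genes was -0.58, 1.36 and -0.14 in the 3 luminal comparisons, in the order just given, against -0.08, 0.19 and 0.08 over all genes.

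Twist2 (chromosome 1, 91801461 to 91848028, plus strand) encodes a factor of mesenchymal cells and was near the lowest measurable values. It had 33 and 19 in puberty basal libraries, against 8 and 13 in ER+ and 7 and 9 in ER- luminal libraries. In the adult it had 8 and 5 in basal libraries, a listed 0 in both ER+ luminal libraries and 7 in both ER- luminal libraries. Pregnancy basal libraries had 17 and 24, against 4 and 4 in ER+ and 7 and 0 in ER- luminal libraries. Adult values lay near the smallest values above 0 of their libraries, and basal and ER- luminal libraries overlapped there. The call over the 3 stages, 1.75 ± 0.48 on the log2 scale (adjusted p = 0.00779), and that in pregnancy, 2.50 ± 0.83 (adjusted p = 0.045), rest on these small values. The pregnancy call was lost in 16 of 25 alternative settings. Its 3 genes of most similar profile were Adgra2, Pdgfra and Fam46b; Pdgfra is a fibroblast marker and was at 885 to 2553 in basal libraries.

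Srf (chromosome 17, 46548329 to 46556175, minus strand) encodes serum response factor, which controls contractile and immediate-early genes. It had 2731 and 2816 in puberty basal libraries, against 1853 and 2302 in ER+ and 2240 and 2114 in ER- luminal libraries. Adult libraries had 2548 and 1983 in basal, 1901 and 1666 in ER+ luminal and 1391 and 1385 in ER- luminal cells. Pregnancy libraries had 3837 and 3749 in basal, 1547 and 1705 in ER+ luminal and 2120 and 2486 in ER- luminal cells. Srf was thus abundant in every population, and the pregnancy basal libraries were the highest of the 18. Basal over luminal cells gave 0.52 ± 0.14 in the adult (adjusted p = 0.01), 0.97 ± 0.14 in pregnancy and 0.39 ± 0.14 at puberty, the last with an adjusted p of 0.0555. The adult call was lost without adult basal library 1 (adjusted p = 0.144) and with adult libraries alone (adjusted p = 0.06), and the puberty value passed under both other scalings (adjusted p of 0.0245 and 0.0164) and without any 1 of 5 single libraries.

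Mkl1 (chromosome 15, 81012281 to 81190757, minus strand, listed there as Mrtfa) encodes a cofactor of Srf that is held in the cytoplasm by actin monomers. Puberty libraries had 2352 and 1931 in basal, 980 and 1038 in ER+ luminal and 1078 and 849 in ER- luminal cells. Adult libraries had 1485 and 1519 in basal, 1280 and 1106 in ER+ luminal and 1016 and 1134 in ER- luminal cells. Pregnancy libraries had 2767 and 2461 in basal, 1454 and 1144 in ER+ luminal and 1282 and 1375 in ER- luminal cells. Every basal library was above every luminal library, though by little in the adult. Basal over luminal cells gave 1.12 ± 0.15 at puberty, 0.41 ± 0.15 in the adult and 1.00 ± 0.15 in pregnancy; the adult value had an adjusted p of 0.0497 and was lost in 19 of 25 alternative settings. The end of Mkl1 overlaps that of Sgsm3 on the opposite strand by a few bases, and whether counting used strand is not stated in the labels or notes.

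Few of the 9 genes were called between stages within basal cells. Pregnancy basal cells had more Srf than adult basal cells, by 0.75 ± 0.16 on the log2 scale (adjusted p = 0.0112), and more Mkl1, by 0.80 ± 0.17 (adjusted p = 0.0133). Both pregnancy basal libraries were above both adult ones for either gene. These 2 of 9 were called higher, with 7.26% of all genes called and 2.92% called higher. Leaving out adult basal library 2 or either pregnancy basal library ended both calls and lowered the calls over all genes to 190, 249 and 344, against 1620 with all libraries; without adult basal library 1 they came to 2524. Pregnancy against puberty gave no call among the 9, with 1 at an unadjusted p under 0.05, and 2.07% of all genes were called. Adult against puberty also gave none, with 3 at an unadjusted p under 0.05, namely Snai2 (-1.21 ± 0.43), Zeb2 (-1.54 ± 0.48) and Mkl1 (-0.50 ± 0.17), and 9.73% of all genes were called. Adult basal libraries had the highest luminal marker sums of the basal libraries, 82861 and 67818. Those of pregnancy had 36804 and 49672, and those of puberty 21991 and 52677. Basal marker sums were lowest in the adult pair, at 154061 and 166498. The part of luminal transcripts in these stage differences was not tested. A fit of the 6 basal libraries alone called 3 of the 9 for adult against puberty, 5 for pregnancy against adult and 1 for pregnancy against puberty. The shares of all genes given above belong to the fit of 18 libraries, so these counts cannot be set against them.

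Myocd (chromosome 11, 65176561 to 65269989, minus strand) encodes myocardin, the Srf cofactor of smooth and cardiac muscle. It had 149 and 174 in puberty basal libraries, against 138 and 0 in ER+ and 134 and 6 in ER- luminal libraries. In the adult it had 78 and 61 in basal libraries, against 8 and 0 in ER+ luminal libraries and a listed 0 in both ER- luminal libraries. Pregnancy basal libraries had 30 and 24, against 19 and 10 in ER+ and 27 and 0 in ER- luminal libraries. At puberty the 2 libraries of each luminal group lay far apart, and basal and luminal libraries overlapped in pregnancy. The log2 fold change over the 3 stages, 3.36 ± 1.06 (adjusted p = 0.0224), depends on the 1 added to values of 0 and was lost without puberty basal library 2, pregnancy basal library 1 or the 6 adult libraries. The adult value, 5.34 ± 1.83 (adjusted p = 0.0439), was lost in 14 of 25 alternative settings.

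At puberty, Myocd and endothelial transcripts were high in the same luminal libraries. The 2 puberty luminal libraries with 138 and 134 Myocd were those with endothelial sums of 14092 and 12539, and those with 0 and 6 had 1790 and 2355. Pericyte markers were likewise at 9661 (ER+) and 10287 (ER-) in the first pair, against 5594 (ER+) and 5423 (ER-) in the second. The basal marker Acta2 split the same way, at 3240 (ER+) and 3103 (ER-) against 225 (ER+) and 420 (ER-). Fibroblast markers split the other way, as given above. In pregnancy the 4 luminal libraries had endothelial sums of 6205 to 10373 and Myocd of 0 to 27. The pregnancy basal libraries had endothelial sums of 7023 and 5983 and Myocd of 30 and 24. Without the first pair, a setting chosen after seeing the data, basal over luminal cells at puberty gave 5.94 for Myocd. With all libraries the value was 3.09 ± 1.83, which was not called. The first pair held the highest luminal Myocd values, so a larger difference without it was fixed in advance. Basal libraries held endothelial sums of 5983 to 17428, and 10 of 11 endothelial and 5 of 6 pericyte markers were called higher in basal than in luminal cells and 1 pericyte marker lower, over the 3 stages. By stage the endothelial count was 0 of 11 at puberty, 11 of 11 in the adult and 0 of 11 in pregnancy. Among 10621 genes compared over the 18 libraries, the profile of Myocd was closest to Meox2, Ptprb and Sema3g, with root mean square differences of 1.41, 1.47 and 1.48 log2 units beside an own spread of 2.74. The part of vascular transcripts in the Myocd values was not tested.

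**Figure D4:**
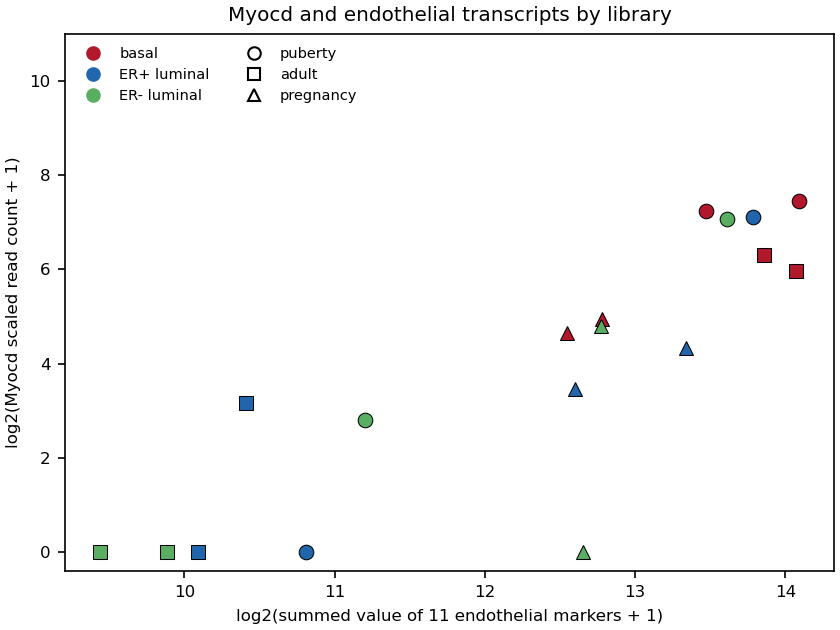
Myocd scaled read count (vertical, log2 of value + 1) against the summed value of 11 endothelial markers (horizontal, log2 of sum + 1); each point is 1 library, coloured by population and shaped by stage. The 2 puberty luminal libraries with high Myocd, 138 and 134, lie near the puberty basal libraries, 149 and 174, on the vertical axis. Their endothelial sums are within the range of the basal libraries. The pregnancy basal libraries lie lower than this pair on both axes, and the 4 adult luminal libraries lie at the lower left.

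The profiles of the other factors over the 18 libraries were nearest to different genes. Trp63 was closest to Krt5, with a root mean square difference of 0.30 log2 units beside an own spread of 2.73, and then to Tenm2 and Sdk2. Snai2 was closest to Id4 (0.46, own spread 2.64), an inhibitor of basic helix-loop-helix factors, and then to the tropomyosin gene Tpm2 and to Krt5. Tbx2 was closest to Pdgfa, Flna and Hspg2, at 0.44 to 0.45 beside 1.34. Zeb1 was closest to Dlc1, Calcrl and Gdap10 (0.50 to 0.52 beside 1.07) and Zeb2 to Nynrin, Stard8 and Ecm2 (0.47 to 0.50 beside 1.30). Mkl1 and Srf varied so little, with own spreads of 0.48 and 0.41, that their nearest genes, Poglut1 and Clstn1 for Mkl1 and Tmem109 and Ctbp2 for Srf, differed from them by 0.20 to 0.21. All 18 libraries share the basal to luminal contrast, so genes that follow it resemble one another.

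Contractile genes, the classical targets of Srf and its cofactors, were higher in basal cells. Of 17 listed, Acta2, Myh11 and Cnn1 are also basal markers. All 17 were called higher over the 3 stages, beside 20.9% of all genes. Their median log2 fold change was 4.33, against -0.03 over all genes. In the adult alone 16 were called higher, and the other one had a value of -1.20. The largest were Cnn1 (calponin, 5.38 ± 0.46), Myh11 (smooth muscle myosin heavy chain, 5.18 ± 0.71), Mylk (myosin light chain kinase, 5.0 ± 0.62) and Actg2 (smooth muscle gamma actin, 4.91 ± 0.39). In pregnancy against adult basal cells, where Srf and Mkl1 were called higher, 4 of the 17 were called higher and none lower: Actg2 (2.85 ± 0.77), Flna (1.14 ± 0.31), Vcl (0.83 ± 0.17) and Tpm1 (0.69 ± 0.18). Smooth muscle of vessels expresses many of these genes too, and pericyte markers were called higher in basal cells as given above. Immediate-early genes, the other class of Srf targets, were less uniform in basal against luminal cells: 5 of 10 were called higher, led by Egr2 (2.96 ± 0.17) and Egr3 (1.71 ± 0.15), and 1 was called lower. None of the 10 was called higher in pregnancy against adult basal cells, and Srxn1 (-2.78 ± 0.27) and Mcl1 (-1.09 ± 0.20) were called lower.

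**Figure D5:**
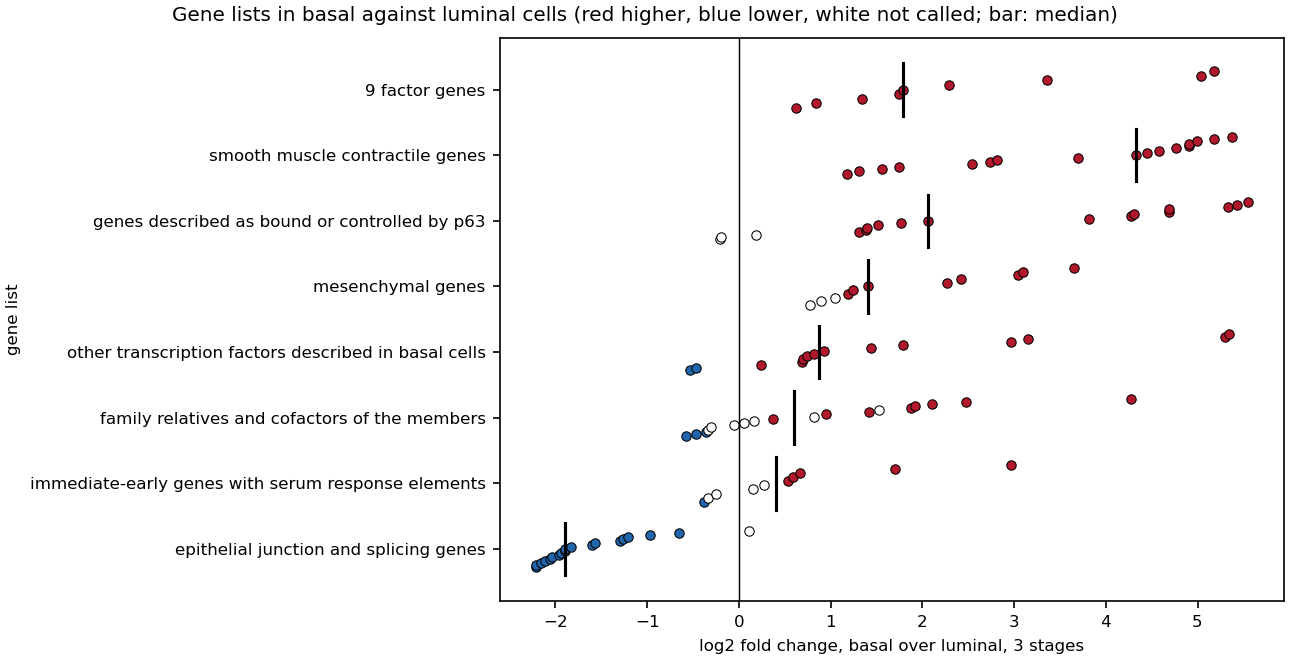
Log2 fold change of basal over luminal cells, 3 stages together, for each tested gene of 8 lists (points in order of value within a list; vertical bar, median of the list). The 17 contractile genes lie between 1.18 and 5.38, and the epithelial junction and splicing genes lie below 0 with 1 exception.

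The CArG box, a run of 6 A or T between CC and GG, was looked for in the 300 bases around RefSeq gene starts (GRCm38.p6; 250 before to 50 after). The motif reads as the same pattern on both strands. It was found in the windows of 1.81% of 27025 genes, of Srf and of 2 of the 14 contractile genes with a window, Vcl and Myl9. Among the factors, Srf, Mkl1, Zeb2 and Twist2 had a window and Srf was the one with the motif, 82 and 62 bases before its start. The stretches are printed because they hold the letters that Srf is known to bind, in its own promoter and in those of a vinculin gene (Vcl) and a myosin light chain gene (Myl9); capitals mark the CArG boxes, 5′ to 3′ on the strand of the gene. They lie at chr17:46556183-46556412 (minus), chr14:20929148-20929205 (plus) and chr2:156775278-156775337 (plus).
Srf: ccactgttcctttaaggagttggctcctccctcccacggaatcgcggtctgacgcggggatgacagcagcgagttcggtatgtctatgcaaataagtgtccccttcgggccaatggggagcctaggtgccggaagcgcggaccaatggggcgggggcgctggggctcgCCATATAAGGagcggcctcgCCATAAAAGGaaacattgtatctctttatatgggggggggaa
Vcl: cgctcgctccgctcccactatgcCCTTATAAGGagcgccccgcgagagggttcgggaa
Myl9: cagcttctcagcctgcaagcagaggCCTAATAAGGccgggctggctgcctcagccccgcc
A match describes letters only, and a gene without one in this window may hold it elsewhere.

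Genes described as bound or controlled by p63 were mostly higher in basal cells: 14 of 17 were called higher and none lower over the 3 stages, with a median of 2.06. They were led by the cadherin gene Cdh3 (5.55 ± 0.37), Krt5 (5.43 ± 0.36), Krt14 (5.33 ± 0.31) and the Notch ligand gene Jag2 (4.69 ± 0.50). Krt5, Krt14, Cdh3 and Itgb4 of this list are also basal markers. In pregnancy against adult basal cells the integrin genes Itga3 (0.83 ± 0.17) and Itga6 (0.76 ± 0.17) and the desmosome gene Perp (0.67 ± 0.17) were called higher, 3 of 17, and none lower, while Trp63 itself moved by 0.75 ± 0.72 and was not called.

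Epithelial junction and splicing genes, the class that Snai and Zeb proteins are known to repress, ran the other way. Of 19 listed, 18 were called lower in basal than in luminal cells and none higher, with a median of -1.90. Ocln (occludin, -2.21 ± 0.15), Cldn3 (-2.21 ± 0.34) and Cldn7 (-2.16 ± 0.21), both claudins, and Tjp3 (a tight junction scaffold, -2.12 ± 0.42) had the largest differences. They are also genes of luminal cells, and 4 of them serve as luminal markers here. Mesenchymal genes, the class known to accompany the repression of junctions, were called higher in basal cells for 8 of 11 tested and lower for none, with a median of 1.41. Cdh2 (N-cadherin, 3.65 ± 0.77), Sparc (3.10 ± 0.11), Mmp2 (3.05 ± 0.42) and Vim (vimentin, 2.42 ± 0.14) led them. Fibroblast markers moved with the mesenchymal genes and share 3 collagen genes with them: 6 of 10 were called higher in basal cells, and their sum was 16482 to 160229 in basal, 6973 to 82209 in ER+ luminal and 14970 to 68008 in ER- luminal libraries. The part of fibroblast transcripts was not tested.

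The E-box letters that Snai2 and the Zeb proteins are known to bind, CAGGTG and its reverse complement CACCTG, stood in the same windows of 22.6% of 27025 genes. Of the 12 junction and splicing genes with a window, 10 held them, as did none of the 4 factors with a window. The stretches of 3 such genes are printed as examples of such motifs before the start, with E-boxes in capitals: Rab25, a trafficking gene (chr3:88548307-88548363, minus), Lsr, a gene of junctions between 3 cells (chr7:30973513-30973719, minus), and Elf3, an epithelial transcription factor (chr1:135258587-135258632, minus).
Rab25: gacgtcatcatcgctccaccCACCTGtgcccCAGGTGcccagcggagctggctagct
Lsr: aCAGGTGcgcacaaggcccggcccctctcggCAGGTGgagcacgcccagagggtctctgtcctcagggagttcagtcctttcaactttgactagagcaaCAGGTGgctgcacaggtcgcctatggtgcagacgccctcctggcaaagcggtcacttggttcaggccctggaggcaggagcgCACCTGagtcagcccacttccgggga
Elf3: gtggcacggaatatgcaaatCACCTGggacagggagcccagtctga
In basal against luminal cells Rab25 moved by -1.97 ± 0.21, Lsr by -1.21 ± 0.12 and Elf3 by -1.29 ± 0.17, all called lower. No binding was measured, so the matches say nothing of which factor acts at these genes.

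Relatives and cofactors of the 9 factors were mixed. Of 18 tested, 8 were called higher and 3 lower in basal cells, with a median of 0.60. Trp73 (4.27 ± 0.54), the other p53 relative of Trp63, Twist1 (2.47 ± 0.34), Tbx5 (2.10 ± 0.50) and Fhl2 (1.92 ± 0.19), a binding partner of Srf, were the largest. Trp53 itself moved by -0.05 ± 0.11 and was not called. Snai1, the relative of Snai2, was called higher (1.42 ± 0.33), and Tbx3, the nearest relative of Tbx2, was not called (-0.34 ± 0.18). Mkl2, the relative of Mkl1, was called lower (-0.47 ± 0.10). Among 14 other transcription factors described in basal cells 12 were called higher and 2 lower, with a median of 0.87 and with Id4 (5.34 ± 0.38), Irx4 (5.30 ± 0.28) and Mef2c (3.15 ± 0.42) at the top. For comparison, Trp63 had 5.18 ± 0.36 and Snai2 5.04 ± 0.21.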

How the data were processed

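Total RNA of sorted cells was made into libraries with the Ovation Solo kit, per the labels' protocols. In the 1 table that the authors deposited, each gene has a whole-number signal value in each library, taken here as read counts scaled to a common total; STAR, Picard, HTSeq and GRCm38 (mm10) are named per the submitters' processing notes, without versions or settings. Gene IDs that occurred in several rows were reduced to 1 row each, the one with the highest mean, which left 46257 of 46868 rows.

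Differences were tested with limma 3.58.1 in R 4.3.3, using robust empirical Bayes with a trend, on log2(value + 1) of the 22315 genes that reached 10 in 2 or more libraries. The model had a mean per group over all 18 libraries and 9 residual degrees of freedom, and luminal means average ER+ and ER- groups. Tests are 2-sided, p-values are adjusted over all genes tested (Benjamini-Hochberg, threshold 0.05), and ± after a log2 fold change is its standard error. Fold changes understate the change of low genes, and those with a group at 0 depend on the 1 added. The procedure was tested on simulated data. Positions are from GENCODE vM21, and promoter sequences and starts from RefSeq. The genes and lists were chosen with earlier results of these data known. Within a list, up to 4 genes with the largest changes among called ones are named; genes of most similar profile are the 3 with the smallest root mean square difference after centring, among tested genes with at least the median mean value. Genes named beyond this rule (Snai1, Tbx3, Mkl2, Trp53, Rab25, Lsr and Elf3) were chosen after their values were seen. Alternatives were pseudocount, filter, scaling, replicate block, subsets of groups and each library left out. Figures were drawn with matplotlib 3.10.9 in Python 3.11.15 from tables made with numpy 2.4.6 and pandas 2.3.3.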

Additional observations from a re-analysis of the deposited data

Results flagged for a closer look

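The basal to luminal difference of Snai2 was smaller in pregnancy than at the other stages by a test of the difference itself: -2.06 on the log2 scale for pregnancy against adult (limma adjusted p = 0.0303) and -2.70 for pregnancy against puberty (limma adjusted p = 0.0277). The calls were lost in 8 and 6 of 24 alternative settings, all of them with 1 library left out. The 11 basal markers had medians of -2.16 and -3.31 in these tests, with 2 of 11 called downward in each, so the change was not shown to be particular to Snai2. The 4 pregnancy luminal libraries had 220 to 315 and the 8 other luminal libraries 26 to 82.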

How the results depend on the processing

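No called result of the 9 genes changed direction. Over 117 gene and comparison pairs, 2745 alternative values kept their side of the threshold, 101 lost a call and 51 gained one. The count of genes called changed as follows. For ER+ against ER- luminal cells it was 0 without the 6 adult libraries and 2 without both puberty luminal libraries numbered 1, a setting chosen after seeing the data, against 1. For adult against puberty basal cells it was 1 under quantile normalization, median-ratio size factors or the replicate block, 3 with basal libraries alone and 2 without that puberty pair, against 0. With basal libraries alone it was 5 for pregnancy against adult, against 2, and 1 for pregnancy against puberty, against 0. The share of all genes called in that fit is not given here. For the basal to luminal difference, pregnancy against adult gave 3 under quantile normalization, 2 under median-ratio size factors and 2 without the puberty pair, and pregnancy against puberty gave 2 without that pair, against 1 each. The replicate block changed no other count by over 1.5 times, and same-numbered libraries deviated together, at a correlation over 0.1, in 1 of 36 pairs of groups (puberty ER+ with puberty ER- luminal, 0.269; lowest -0.088, median 0.014), so the numbers were not taken as pairs over the series. With single libraries left out the counts ran 8 to 9, 4 to 6, 5 to 8 and 4 to 7 for basal against luminal cells (all stages, puberty, adult, pregnancy), 1 to 2 for ER+ against ER-, 0 to 2, 0 to 2 and 0 to 0 for the basal comparisons (adult against puberty, pregnancy against adult, pregnancy against puberty), 2 to 4, 4 to 6 and 2 to 4 for the luminal ones in that order, and 0 to 2 for both differences. Over all genes, the calls for basal against luminal cells fell to 2357 without puberty basal library 1 (puberty, against 4783), 3391 without adult basal library 2 and 4068 with adult libraries alone (adult, against 6893), and 1281 or 2175 without pregnancy basal library 1 or 2 (pregnancy, against 4399). Those for ER+ against ER- fell to 3462 without the adult libraries, against 5691. Adult against puberty gave 378, 1319 and 787 in basal cells without puberty basal library 1, puberty basal library 2 and adult basal library 2, against 2172, and 1689 in luminal cells without puberty ER- library 1 and 1472 without the puberty pair, against 2668. Pregnancy against adult basal cells gave 2503 under quantile normalization, against 1620, and pregnancy against puberty basal cells 75 to 239 without any 1 of those 4 libraries, against 461. The difference for pregnancy against adult gave 391 to 653 without adult basal library 2 or either pregnancy basal library, against 1378, and that for pregnancy against puberty 14 to 282 without single libraries and 429 without the puberty pair, against 166. Scaling moved the split of higher and lower calls. Under quantile normalization it was 3216 and 4294 for adult basal against luminal cells (against 4153 and 2740), 3101 and 2729 for ER+ against ER- (2305 and 3386), and in luminal cells 1321 and 1524 for adult against puberty (824 and 1844), 3026 and 3413 for pregnancy against adult (4390 and 2073) and 2968 and 3028 for pregnancy against puberty (3379 and 2206). For the differences it was 799 and 861 for pregnancy against adult (336 and 1042) and 103 and 97 for pregnancy against puberty (57 and 109). Under median-ratio size factors it was 2472 and 1447 for pregnancy basal against luminal cells (1928 and 2471), 3847 and 2805 and then 2790 and 2968 for the last pair of luminal comparisons, and 648 and 923 and then 79 and 94 for the differences. The median of all genes for basal against luminal cells was -0.17 (quantile) and 0.07 (median-ratio), against -0.03. Count models were not run, because in 3 of 18 libraries at least 95% of low values were whole multiples of 1 step, within 0.1 of a step, and in the other libraries fewer were. Rounding to whole numbers alone moves values off a multiple where the step is small. The check therefore cannot tell whether the values were read counts before scaling. Adult luminal libraries, the shallowest, resolve values of 7 to 9 and no lower.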
